A study of Mus musculus with 40 samples.

Results

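PAX5-G183V was set against an empty vector in J558LuM, a mouse plasmacytoma line of plasma cell type. The members were the 7 arrays whose titles give the PAX5-G183V construct and the 7 whose titles give MIR, the vector without a PAX5 insert, 14 of 40 arrays in the series. PAX5 is a transcription factor that sets and holds the identity of B cells, and it is switched off when B cells become antibody-secreting plasma cells. It binds DNA through its paired domain, raises B lineage genes and lowers genes of other lineages and of plasma cells. G183V changes a glycine of the octapeptide, a short motif through which PAX5 recruits Groucho co-repressors. The comparison addressed which genes of a plasma cell line responded when this altered PAX5 was put back.

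All cells were J558LuM cells transduced with a construct, with no further treatment. Each array carries its own transduction number, so replicates were separate transductions of a single line. The labels also give 2 RNA isolation batches and 2 array plates. PAX5-G183V had 3 arrays in isolation batch 1 and 4 in isolation batch 2, against 4 and 3 for MIR, and each group had 4 arrays on plate 1 and 3 on plate 2. The PAX5-G183V transductions were numbered 7 to 9 and 46 to 50, the MIR transductions 34 to 38 and 58 to 60, so transduction series and construct cannot be told apart in this comparison. PAX5-Δ2-6, named as the labels name it, had 6 arrays on plate 2, with transductions numbered 4 to 6 and 53 to 57. Those numbers lie next to the PAX5-G183V ones in isolation batch 1, and between the PAX5-G183V and MIR ones in isolation batch 2. PAX5-Δ2-6 was used as a further comparison. PAX5-WT, the unaltered construct, had 7 arrays, with transductions numbered 36 to 43 and 61 to 63. The arrays measured RNA of whole cultures, so fewer cells with a transcript and less of it per cell cannot be told apart. Precision here is limited by the number of arrays.

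The deposited values were log2 signals for 45141 probe sets, from which 17097 genes were taken. The medians of the 14 arrays lay between 4.21 and 4.26. All 14 measured plasma cell identity genes had a mean above log2 5 in MIR arrays, and Iglv1, a light chain variable gene, read 14.09 to 14.17 in PAX5-G183V arrays and 14.03 to 14.15 in MIR arrays. Cd79a, a B cell receptor component, lay near the floor, with lowest, median and highest log2 signals of 4.00, 4.25 and 4.50 in PAX5-G183V arrays and 4.08, 4.21 and 4.30 in MIR arrays. The summed levels of markers of other cell types overlapped between the groups. The 17 myeloid markers summed to 69.1 to 71.0 log2 units in PAX5-G183V arrays and 70.2 to 72.4 in MIR arrays, and the 10 erythroid markers to 46.6 to 48.6 and 46.8 to 48.4. The 15 fibroblast markers summed to 54.7 to 56.5 in PAX5-G183V arrays and 55.6 to 56.6 in MIR arrays, and the 15 T cell markers to 65.6 to 67.3 and 65.4 to 66.7. No myeloid, erythroid or fibroblast marker passed the test used below. Cd6 and Cd8a passed among the T cell markers.

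The Pax5 probe set had lowest, median and highest log2 signals of 4.75, 4.85 and 5.11 in PAX5-G183V arrays and 4.19, 4.51 and 4.63 in MIR arrays. The ranges did not overlap, but the difference of 0.41 ± 0.15 did not pass (SE; limma adjusted p = 0.0824). PAX5-Δ2-6 arrays read 4.68 to 5.90 for the same probe set. Whether this probe set reads the transduced construct was not tested, so it is no measure of how much PAX5 protein the cells made.

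Differences below are log2 differences, PAX5-G183V minus MIR, from a limma model over all 40 arrays with isolation batch and plate as terms. A gene was called to have risen or fallen when its Benjamini-Hochberg adjusted p over all 17097 genes was under 0.05. By that rule 963 genes rose, 5.63% of those tested, and 623 fell, 3.64%, together 9.28%. Most differences were small: the median size among called genes was 0.28, 30 genes rose and 8 fell at least 2-fold, and 5 rose and 1 fell at least 4-fold. The named leading genes are the 15 largest rises and 15 largest falls among genes that also passed in each isolation batch alone and whose 7 and 7 arrays did not overlap. Over all genes such a gap without overlap was found in 2.7%, with PAX5-G183V higher in 1.66% and lower in 1.05%. When only genes with a mean above log2 5 were fitted, 1806 of 8273 were called. The 9.28% is therefore a low base for lists of bright genes. Gene lists were chosen with earlier results of these data known, so their shares describe them and are no test.

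**Figure D1:**
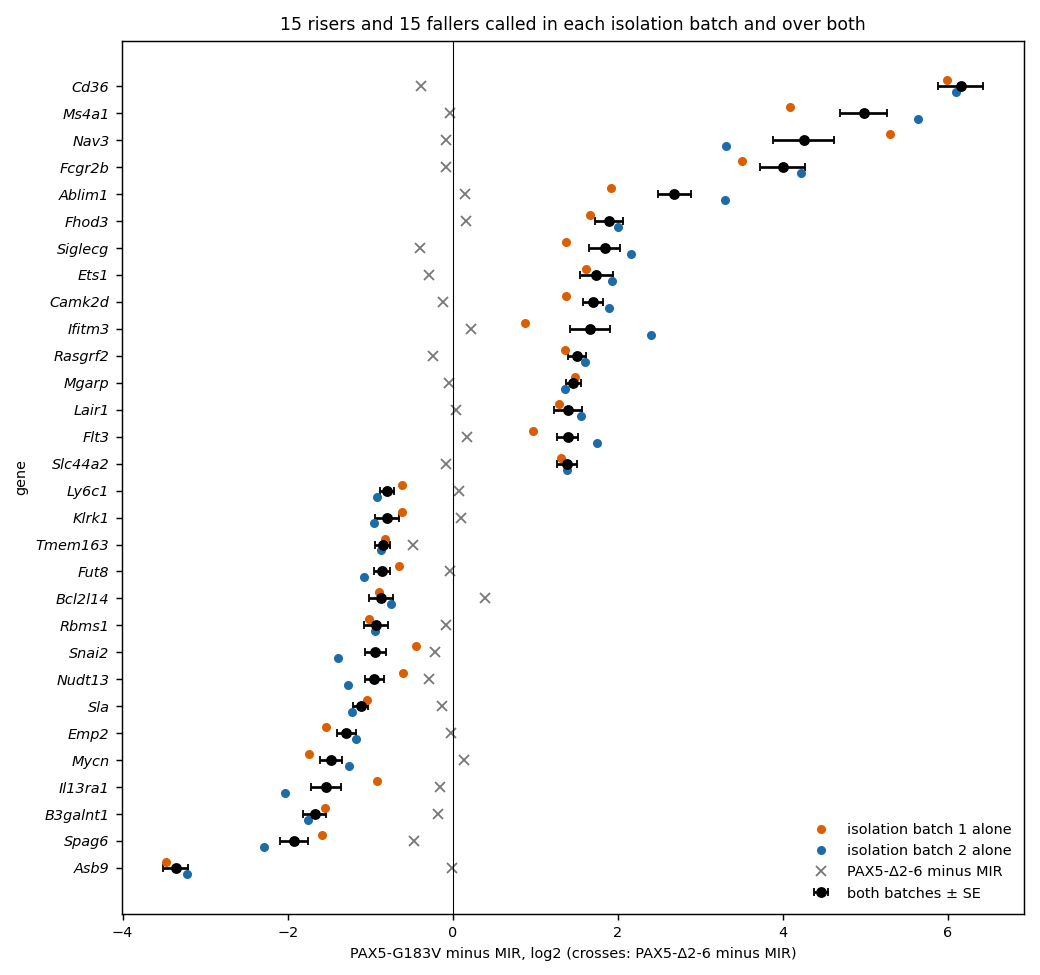
Log2 difference, PAX5-G183V minus MIR, for the 15 leading genes that rose and the 15 that fell. Filled points with bars are the difference over both isolation batches ± SE, the other markers are each batch alone, and crosses are PAX5-Δ2-6 minus MIR. The crosses lie between -0.48 and 0.39 while the PAX5-G183V points reach 6.15 for Cd36 and -3.36 for Asb9.

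The sequences upstream of 3 of these genes are shown because they include the largest rise, the largest fall and a riser with a match to the paired-domain core sequence. Each is the 250 bases before 1 start of the gene as given by RefSeq on GRCm38.p6, written 5′ to 3′ on the gene's strand. Capitals mark a match on either strand to GCGTGAC, the core of the sequence that the PAX5 paired domain binds, or to GGAAGT, an ETS-type core. For Cd36 and Asb9 the first start listed was used. For Ablim1 it was the first start listed with a GCGTGAC match before it, so that choice fixed the match. Matches given below are those of these windows and not of other starts. Cd36 lies on the minus strand (chr5:17835897-17836146) and held 1 match to GGAAGT, read here from the other strand. Asb9 lies on the plus strand (chrX:164497653-164497902) and held no match to either. Ablim1 lies on the minus strand (chr19:57274669-57274918) and held 1 match to GCGTGAC, also read from the other strand.
Cd36: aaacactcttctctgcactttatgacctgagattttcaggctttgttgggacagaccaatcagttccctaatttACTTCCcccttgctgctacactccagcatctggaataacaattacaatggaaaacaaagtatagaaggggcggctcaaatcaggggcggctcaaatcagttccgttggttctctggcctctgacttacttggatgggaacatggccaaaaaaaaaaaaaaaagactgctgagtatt
Asb9: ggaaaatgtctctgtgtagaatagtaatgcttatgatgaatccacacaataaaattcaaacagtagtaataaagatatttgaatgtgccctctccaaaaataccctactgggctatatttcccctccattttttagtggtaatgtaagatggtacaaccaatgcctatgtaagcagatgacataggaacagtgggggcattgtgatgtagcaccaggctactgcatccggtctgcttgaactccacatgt
Ablim1: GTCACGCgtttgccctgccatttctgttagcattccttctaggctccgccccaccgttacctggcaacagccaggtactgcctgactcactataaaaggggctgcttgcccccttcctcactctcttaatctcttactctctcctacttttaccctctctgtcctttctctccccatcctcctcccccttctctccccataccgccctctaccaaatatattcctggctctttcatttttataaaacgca
Over promoters of all genes tested that RefSeq's table held (16953 promoters of 13514 genes, each 250 bases before to 50 after the start), 2.99% held GCGTGAC, 25.5% GGAAGT and 37.6% CCAAT, each counted on both strands. Among the 130 promoters of the genes that rose over both batches and in each alone the shares were 3.08%, 22.3% and 30.0%. Among the 79 promoters of the genes that fell in all 3 they were 2.53%, 30.4% and 41.8%. These counts describe letters in these windows only.

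Cd36 rose most. This scavenger receptor, which takes up long-chain fatty acids and oxidised lipids, had lowest, median and highest log2 signals of 9.55, 10.51 and 10.77 in PAX5-G183V arrays, against 3.56, 3.71 and 5.89 in MIR arrays. The groups were far apart, with a single MIR array, replicate 7, well above the other 6. The difference was 6.15 ± 0.28 (SE, n = 7 and 7; limma adjusted p = 5.33e-19), 71.2-fold, and 6.46 without that array. Ms4a1, which encodes the B cell surface protein CD20, read 7.93, 9.25 and 9.46 in PAX5-G183V arrays and 3.23, 3.86 and 4.08 in MIR arrays. It rose by 4.98 ± 0.28, 31.5-fold, with no overlap. Fcgr2b, a receptor for IgG that inhibits B cells, read 8.00, 8.82 and 8.99 in PAX5-G183V arrays and 4.12, 4.36 and 5.58 in MIR arrays, a rise of 4.00 ± 0.27 or 15.96-fold. All 4 Fcgr2b probe sets rose, as did all 3 of Cd36 and both of Ms4a1. MIR signals of Cd36, Ms4a1 and Nav3 lay mostly below the array medians, near the floor of the arrays, so the folds of these 3 genes are ratios of array signals and may understate the change.

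Siglecg, a lectin that restrains B cell receptor signalling, rose by 1.84 ± 0.19, with arrays at 6.09 to 7.43 in PAX5-G183V and 4.45 to 5.29 in MIR. Lair1, an inhibitory collagen receptor, rose by 1.39 ± 0.17 (5.89 to 6.15 in PAX5-G183V, 4.20 to 5.14 in MIR). Ifitm3, an antiviral membrane protein, rose by 1.67 ± 0.24, and its MIR arrays split by isolation batch, at 7.28 to 7.45 in batch 1 and 5.75 to 6.58 in batch 2. Every PAX5-G183V array, 8.15 to 8.72, lay above both. Flt3, a cytokine receptor of early progenitors that PAX5 is known to repress in B cells, had signals of 6.09, 6.47 and 6.81 in PAX5-G183V arrays and 4.55, 5.18 and 5.75 in MIR arrays. It rose by 1.39 ± 0.13 (SE; limma adjusted p = 3.69e-10), the reverse of what its place on the list of PAX5-repressed genes names.

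Nav3, a microtubule-associated navigator protein, read 7.44, 7.77 and 9.37 in PAX5-G183V arrays and 3.84, 4.00 and 4.53 in MIR arrays. It rose by 4.25 ± 0.37 (SE; limma adjusted p = 6.84e-11), 19.1-fold, with all 3 probe sets called. Ablim1, which binds actin filaments, read 7.12, 8.15 and 8.49 in PAX5-G183V arrays and 4.86, 5.14 and 5.28 in MIR arrays, a rise of 2.69 ± 0.20 that 2 of its 3 probe sets showed. Fhod3, an actin-assembling formin, rose by 1.89 ± 0.17. Sema4a, a semaphorin ligand of the immune system, rose by 0.64 ± 0.10 (5.33 to 5.81 in PAX5-G183V, 4.71 to 5.24 in MIR). Of 26 measured genes of cytoskeleton and guidance 5 rose and 0 fell, 19.2% against 9.28% of all genes. The fifth, Sema4d, lost its call when any of 7 single arrays was left out. Median difference of this list was 0.08, against 0.01 over all genes.

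Other leading rises came from genes of varied function. Camk2d, a calcium- and calmodulin-dependent kinase, rose by 1.70 ± 0.12, with 8.29 to 9.16 in PAX5-G183V arrays and 6.80 to 7.21 in MIR arrays. Rasgrf2, an exchange factor that activates Ras and Rac, rose by 1.504 ± 0.11. Traf5, an adaptor of TNF receptors, read 8.06, 8.29 and 8.40 in PAX5-G183V arrays and 6.29, 6.89 and 7.35 in MIR arrays. Its rise of 1.37 ± 0.07 (SE; limma adjusted p = 1.22e-16) had the smallest SE of those quoted in this paragraph. Mgarp, a mitochondrial transport protein, rose by 1.46 ± 0.09 and Slc44a2, a choline transporter-like protein, by 1.38 ± 0.12, neither with overlapping arrays. Probe sets of the 30 leading genes numbered 64, of which 55 were called in the gene's direction and 0 against it.

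**Figure D2:**
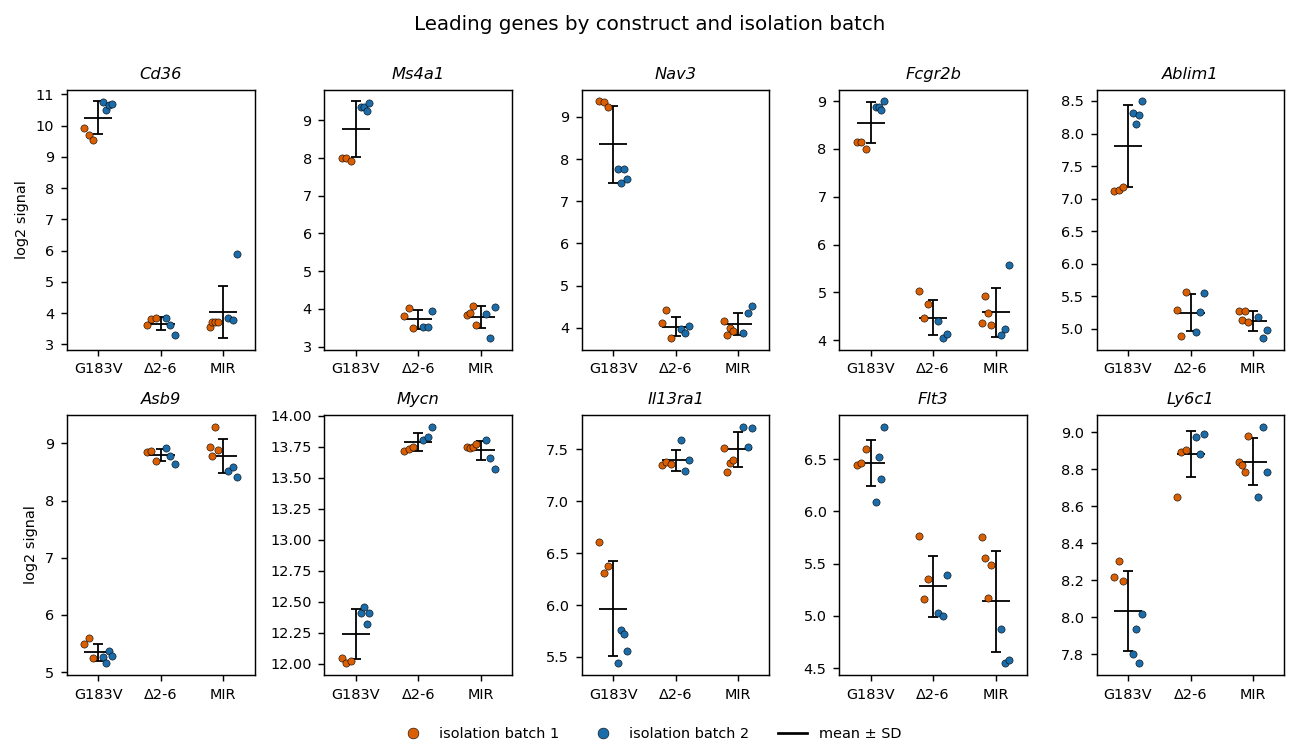
Log2 signal of 10 genes in each PAX5-G183V, PAX5-Δ2-6 and MIR array, coloured by RNA isolation batch, with group mean ± SD (n = 7, 6 and 7). PAX5-Δ2-6 arrays lie with the MIR arrays, for instance 3.29 to 3.84 for Cd36 and 8.64 to 8.92 for Asb9.

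Asb9, which supplies substrates to a ubiquitin ligase, fell furthest. It read 5.16, 5.28 and 5.60 in PAX5-G183V arrays, against 8.41, 8.78 and 9.29 in MIR arrays, and fell by 3.36 ± 0.15 (SE; limma adjusted p = 5.33e-19). Mycn, which encodes a MYC-type transcription factor, read 12.005, 12.32 and 12.45 in PAX5-G183V arrays and 13.58, 13.75 and 13.81 in MIR arrays. Its fall of 1.48 ± 0.14 was carried by 1 of 3 Mycn probe sets, the other 2 differing by 0.03 and -0.04 without passing. Il13ra1, a receptor chain for interleukins 4 and 13, read 5.44, 5.76 and 6.61 in PAX5-G183V arrays and 7.28, 7.51 and 7.72 in MIR arrays, and all 5 of its probe sets fell (-1.54 ± 0.18 for the one used).

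Ly6c1, a surface antigen found on plasma cells, fell by 0.80 ± 0.08, with 7.75 to 8.31 in PAX5-G183V arrays and 8.65 to 9.03 in MIR arrays. Sla, an adaptor that dampens receptor signalling, fell by 1.12 ± 0.09. Klrk1, which encodes the activating receptor NKG2D, fell by 0.80 ± 0.14. Fut8, the enzyme that adds core fucose to glycoproteins, fell by 0.85 ± 0.10 and B3galnt1, another glycosyltransferase, by 1.67 ± 0.14. Snai2, a zinc finger repressor, fell by 0.94 ± 0.12, and Rbms1, which binds single-stranded nucleic acid, by 0.93 ± 0.15. Emp2, a tetraspan membrane protein, fell by 1.29 ± 0.12, and Spag6, a protein of the ciliary axoneme, by 1.93 ± 0.17. Tmem163, a zinc transporter, fell by 0.85 ± 0.09, Bcl2l14 of the BCL2 family by 0.87 ± 0.14 and the nudix gene Nudt13 by 0.95 ± 0.12.

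B lineage transcription factors mostly rose where they were called. Of 23 measured, 7 rose and 1 fell, 34.8% against 9.28% of all genes, and the list's median difference was 0.09. The list was chosen with earlier results of these data known, so this share is no test. Ets1, an ETS factor of lymphocytes, read 5.08, 5.42 and 5.79 in PAX5-G183V arrays and 3.16, 3.50 and 4.45 in MIR arrays, and all 4 of its probe sets rose (1.74 ± 0.20 for the one used; limma adjusted p = 5.9e-08). Spib, an ETS factor that supports B cell receptor signalling, read 5.22, 6.51 and 6.81 in PAX5-G183V arrays and 4.36, 4.76 and 5.00 in MIR arrays, a rise of 1.34 ± 0.29. Id3, which holds E proteins off DNA, read 7.55, 8.12 and 8.41 in PAX5-G183V arrays and 6.53, 7.22 and 7.53 in MIR arrays, a rise of 1.00 ± 0.18.

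Myb, a factor of progenitor cells, rose by 0.42 ± 0.10. Ikzf1 and Ikzf3, which encode the zinc finger factors Ikaros and Aiolos, rose by 0.31 ± 0.04 and 0.25 ± 0.07, and the E protein gene Tcf12 fell by 0.21 ± 0.04. Those 3 genes were named after their values were seen. Spi1, which encodes PU.1 and rose by 0.31 ± 0.10, lost its call without any of 9 single arrays. Ebf1, a founding factor of the B lineage, did not pass and lay near the floor, at 3.42 to 3.68 in PAX5-G183V arrays and 3.51 to 3.80 in MIR arrays. Prdm1 and Irf4, which encode the plasma cell factors BLIMP1 and IRF4, differed by -0.01 ± 0.05 and -0.02 ± 0.05 and did not pass. Without MIR replicate 7 the list gave 5 rises and 1 fall.

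**Figure D3:**
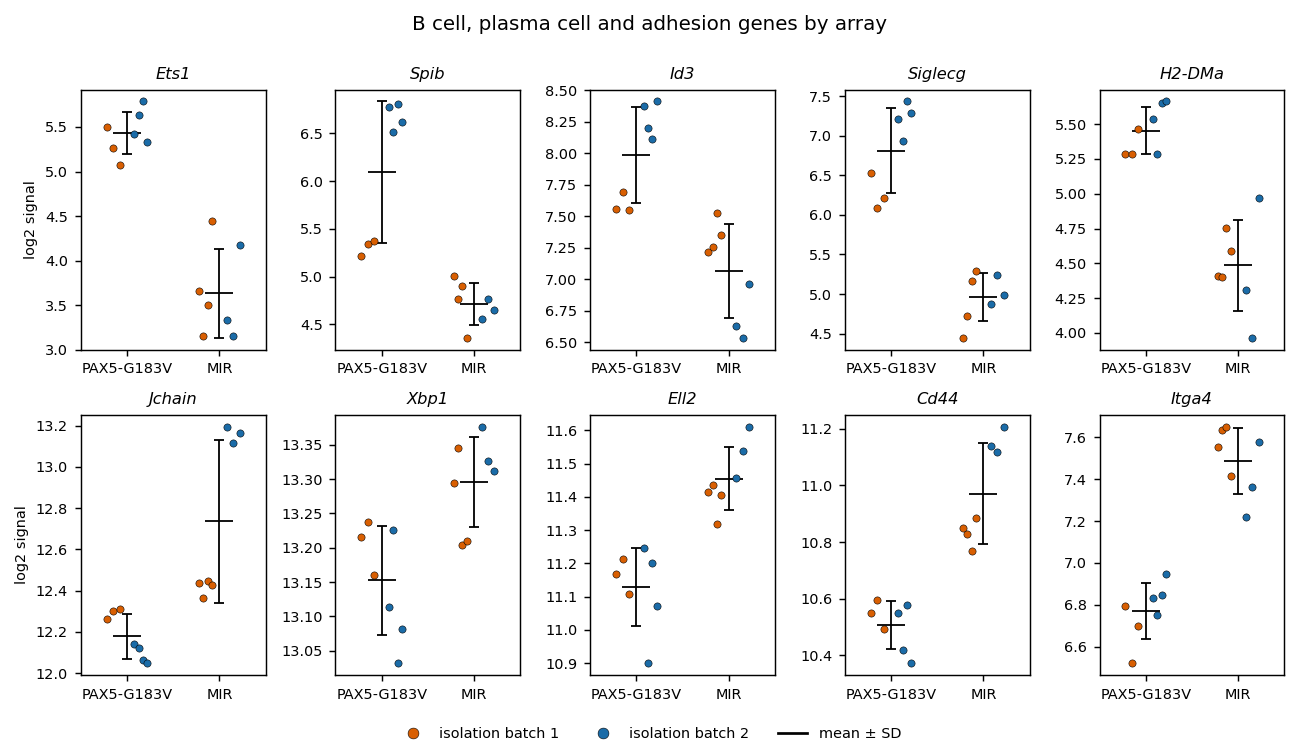
Log2 signal of 10 B lineage, antigen presentation, plasma cell and adhesion genes in each PAX5-G183V and MIR array, coloured by RNA isolation batch, with group mean ± SD (n = 7 each). Ets1, Spib, Siglecg and H2-DMa are higher in every PAX5-G183V array than in any MIR array, and Ell2, Cd44 and Itga4 lower in every one.

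The list of genes that PAX5 is known to activate in B cells had 21 measured members. Of these 6 rose and 1 fell, 33.3% against 9.28% of all genes. Slamf6, a self-binding receptor of lymphocytes, rose by 1.27 ± 0.36 (5.90 to 7.09 in PAX5-G183V, 4.97 to 5.37 in MIR), on 1 of 3 probe sets, and lost its call without PAX5-G183V replicate 1. Fcrla, an intracellular Fc receptor-like protein of B cells, rose by 0.55 ± 0.16 and was named after its value was seen. Mycn, on the same list, was the fall. Cd79a, Cd72 and Cd22 did not pass, with differences of 0.05 ± 0.08, 0.02 ± 0.06 and 0.11 ± 0.08. Of 24 genes that PAX5 is known to repress, 1 rose and 3 fell, 16.7%: Flt3 was the rise, and Xbp1, Jchain and Ly6d were the falls. Ly6d, a lymphoid surface antigen, fell by 0.42 ± 0.11.

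Of 24 genes of B cell receptor signalling and its brakes, 6 rose and 1 fell, 29.2%, and Fcgr2b and Siglecg led them. Vav2, a guanine nucleotide exchange factor, rose by 0.65 ± 0.13 (4.61 to 5.79 in PAX5-G183V, 4.32 to 4.60 in MIR). Btk, a kinase that B cells need for maturation, rose by 0.34 ± 0.06, with 7.72 to 8.19 in PAX5-G183V arrays and 7.34 to 7.82 in MIR arrays. Vav1 and the adaptor Bcl10 rose by 0.29 and 0.23 and were named after their values were seen. Themis2, a signalling adaptor of B cells, fell by 0.29 ± 0.08. Blnk and Cd79b, central parts of the same pathway, differed by -0.01 ± 0.03 and -0.03 ± 0.06 without passing. Of 9 SLAM receptors and adaptors 1 rose, Slamf6, or 11.1% against 9.28% of all genes.

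Of 15 measured genes of MHC class II presentation 2 rose and 1 fell, so 3 of 15 were called against 9.28% of all genes. The fall, Rfxank, lost its call without any of 9 single arrays. H2-DMa, a chaperone that loads peptide onto class II molecules, read 5.28, 5.47 and 5.66 in PAX5-G183V arrays and 3.96, 4.41 and 4.97 in MIR arrays, a rise of 0.94 ± 0.16. The other H2-DMa probe set differed by 0.15 and did not pass. Cd74, the invariant chain, rose by 0.48 ± 0.12. H2-Eb1 and Ciita, the class II beta chain and its activator, differed by 0.09 ± 0.06 and 0.01 ± 0.08 and did not pass. Of 14 class I genes 2 rose and 1 fell, 21.4%, with 1 to 2 rises when single arrays were left out. Most class I genes were bright, 13 of 14 having a mean above log2 5 in MIR arrays. Of 15 members of the membrane spanning 4A family, Ms4a1 rose while the ion channel genes Tmem176a and Tmem176b fell by 0.68 ± 0.12 and 0.56 ± 0.09.

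Of 14 measured plasma cell identity genes 8 fell and 1 rose, and 5 did not pass, so 64.3% were called against 9.28% of all genes. All 14 lay above log2 5 in MIR arrays. In a fit of only genes with a mean above log2 5, 1806 of 8273 were called. The list was also chosen with earlier results of these data known. The list's median difference was -0.18, and 6 to 8 members fell when each of the 14 arrays was left out in turn. With 4 transduction series in place of the batches Ly6c1 still passed, at -1.03, while Ell2 (-0.37), Eaf2 (-0.32), Xbp1, Jchain, Tnfrsf17 and Tnfrsf13b did not. In that fit PAX5-G183V and MIR share no series and are linked only by 1 PAX5-G183S array, transduction 45. Its median SE was 0.18 against 0.08 in the main fit, so lost calls there say little about single genes. Ell2, an elongation factor that drives secretory antibody mRNA, read 10.90, 11.17 and 11.25 in PAX5-G183V arrays and 11.32, 11.44 and 11.61 in MIR arrays, a fall of 0.35 ± 0.06 (SE; limma adjusted p = 0.000108). Eaf2, its partner, read 10.65, 10.75 and 10.78 in PAX5-G183V arrays and 10.95, 11.01 and 11.06 in MIR arrays. Neither gene's groups overlapped, and Eaf2 fell by 0.29 ± 0.05.

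Xbp1, the transcription factor that builds secretory capacity, fell by 0.15 ± 0.04, with overlapping ranges of 13.03 to 13.24 in PAX5-G183V arrays and 13.20 to 13.38 in MIR arrays. Of the 4 Xbp1 probe sets 3 fell. Jchain, the joining chain of IgM and IgA, fell by 0.63 ± 0.15 over both batches, but its MIR arrays split by isolation batch, at 12.36 to 12.45 in batch 1 and 13.12 to 13.19 in batch 2. Within batch 1 its difference was -0.10 and did not pass, while within batch 2 it was -1.08. Edem1, which sends misfolded glycoproteins for degradation, fell by 0.21 ± 0.04, and Fkbp11, a folding protein of secretory cells, rose by 0.21 ± 0.05, both named after their values were seen. Tnfrsf17, the survival receptor BCMA, fell by 0.38 ± 0.12 and Tnfrsf13b, the related receptor TACI, by 0.27, but these calls ended without any of 11 and 3 single arrays. The 5 measured immunoglobulin genes gave 0 calls. Of 22 genes of the unfolded protein response 1 rose and 2 fell, 13.6% against 9.28% of all genes.

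Of 19 measured genes of adhesion and migration 5 fell and 0 rose, 26.3%, or 4 to 5 and 0 to 1 with single arrays left out, although the list's median difference was 0.01. Itga4, the integrin chain through which plasma cells hold to marrow stroma, read 6.52, 6.79 and 6.95 in PAX5-G183V arrays and 7.22, 7.55 and 7.65 in MIR arrays. It fell by 0.70 ± 0.12 (SE; limma adjusted p = 0.000116), and 3 of its 5 probe sets fell. Cd44, the hyaluronan receptor, read 10.37, 10.55 and 10.60 in PAX5-G183V arrays and 10.77, 10.89 and 11.21 in MIR arrays, a fall of 0.50 ± 0.07. The tetraspanin Cd151 fell by 0.28 ± 0.07 and the integrin chain Itgav by 0.20 ± 0.04. Itgb1, the partner of Itga4, fell by 0.26 and lost its call without any of 5 single arrays.

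Receptors and ligands of other families were called in both directions. Of 28 TNF ligands and receptors 1 rose and 4 fell, 17.9% against 9.28% of all genes, Traf5 being the rise. Only 2 fell without MIR replicate 6, PAX5-G183V replicate 4 or PAX5-G183V replicate 6. Tnfsf10, the death ligand TRAIL, fell by 0.73 ± 0.14. Of 29 interleukin and cytokine receptors 2 rose and 3 fell, 17.2%, or 5 fell with median-centred arrays. Il17ra, the receptor of interleukin 17, rose by 0.55 ± 0.07 beside Flt3. Of 21 chemokine and lipid receptors 2 rose and 3 fell, 23.8%, and P2ry14, a receptor for UDP-glucose, fell by 0.59 ± 0.09. P2ry10, a lysophospholipid receptor, rose by 1.63 ± 0.52. Its PAX5-G183V arrays read 6.11 to 6.57 in isolation batch 1 and 3.53 to 3.85 in batch 2, with MIR arrays at 3.04 to 3.51, and its call ended without any of 10 single arrays.

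Among survival and growth genes, Bcl2, the founding inhibitor of apoptosis, read 7.16, 7.30 and 7.61 in PAX5-G183V arrays and 6.43, 6.73 and 6.87 in MIR arrays. It rose by 0.71 ± 0.08 (SE; limma adjusted p = 4.83e-08) with no overlap. The other Bcl2 probe set differed by 0.28 and did not pass. Of 18 p53 targets and apoptosis genes 4 rose and 3 fell, 38.9% against 9.28% of all genes. When arrays were centred on their medians 2 rose and 6 fell. With single arrays left out 2 to 4 rose and 0 to 5 fell, with 0 falls without any of MIR replicates 5, 6 and 7 and PAX5-G183V replicates 4, 6 and 7. Mki67, a marker of cycling cells, read 11.87 to 12.04 in PAX5-G183V arrays and 12.13 to 12.33 in MIR arrays and fell by 0.32 ± 0.06. Of 28 cell cycle genes 2 rose and 4 fell, 21.4%. With single arrays left out 1 to 4 rose and 2 to 4 fell (2 without MIR replicate 5, MIR replicate 6 or PAX5-G183V replicate 6). Of 23 genes of the MYC network and ribosome biogenesis 1 rose and 2 fell, 13.0%, Mycn among the falls. The rise, Odc1, lost its call under either other scaling and without any of 6 single arrays. Of 16 genes of cholesterol synthesis 4 fell and 0 rose, 25.0%. Under either other scaling 6 fell and 0 rose, and against PAX5-Δ2-6 0 changed. Without single arrays 2 to 4 fell, as Lss lost its call without any of 7 arrays and Insig1 without any of 9.

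Fatty acid genes other than Cd36 moved little. Of 26 measured, Cd36 among them, 2 rose and 2 fell, 15.4% against 9.28% of all genes. Cpt1a, which carries fatty acids into mitochondria, rose by 0.30 ± 0.08, while Lpl and Fabp5, which release and bind fatty acids, differed by 0.03 ± 0.09 and -0.08 ± 0.04 and did not pass. Of 21 targets of the amino acid response 2 rose, 9.52%, and 0 did so with median-centred arrays. Of 21 genes of glycolysis and hypoxia 2 rose and 1 fell, 14.3%, and 0 rose and 2 fell with median-centred arrays. Without single arrays 0 to 3 rose, 0 of them without MIR replicate 2, MIR replicate 6 or PAX5-G183V replicate 5.

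Interferon genes gave 1 rise and 2 falls of 22 measured, 13.6% against 9.28% of all genes. They gave 5 falls after repeated quantile normalisation or 6 after median centring. Irgm1, an interferon-inducible GTPase of cell-autonomous immunity, read 7.33, 7.97 and 8.07 in PAX5-G183V arrays and 6.49, 6.62 and 7.54 in MIR arrays, a rise of 0.84 ± 0.07 with overlapping ranges. Igtp, a GTPase of the same family, fell by 0.50 ± 0.07, so that 1 of 11 such GTPases rose and 1 fell, 18.2%. Among 15 genes of the NF-kappaB system 3 rose and 0 fell, so 3 of 15 were called against 9.28% of all genes. Relb rose by 0.35. Of these 15 genes 10 had a mean above log2 5 in MIR arrays, so the 9.28% is a low base here. With median-centred arrays 2 rose, and 0 rose against both MIR and PAX5-Δ2-6.

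Because G183V lies in the motif that binds Groucho proteins, the co-repressors themselves were examined. Of 14 Groucho co-repressors and PAX5 partners 3 rose and 1 fell, 28.6% against 9.28% of all genes. Tle6, a Groucho-related gene, fell by 0.38 ± 0.07 (8.35 to 8.71 in PAX5-G183V, 8.88 to 9.12 in MIR), while Tle1 rose by 0.29. Tle3, up by 0.25, lost its call without any of 7 single arrays. Hes1, a repressor that recruits Groucho proteins, rose by 0.32 ± 0.09. Hes1 was also 1 of 3 rises, with 0 falls, among 21 NOTCH genes, 14.3%, or 2 rises and 1 fall under either other scaling. Of 23 genes of TGF-beta and BMP signalling 1 rose and 1 fell, 8.7%, Tgif1 rising by 0.33. In that list 0 fell without MIR replicate 5, MIR replicate 6 or PAX5-G183V replicate 6. Among 15 T cell markers 1 rose and 1 fell, 13.3%. Cd6 rose by 0.57 ± 0.09 (6.81 to 7.25 in PAX5-G183V, 6.04 to 6.80 in MIR). Cd8a fell by 0.26 ± 0.08, a call that ended without any of 9 single arrays.

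**Figure D4:**
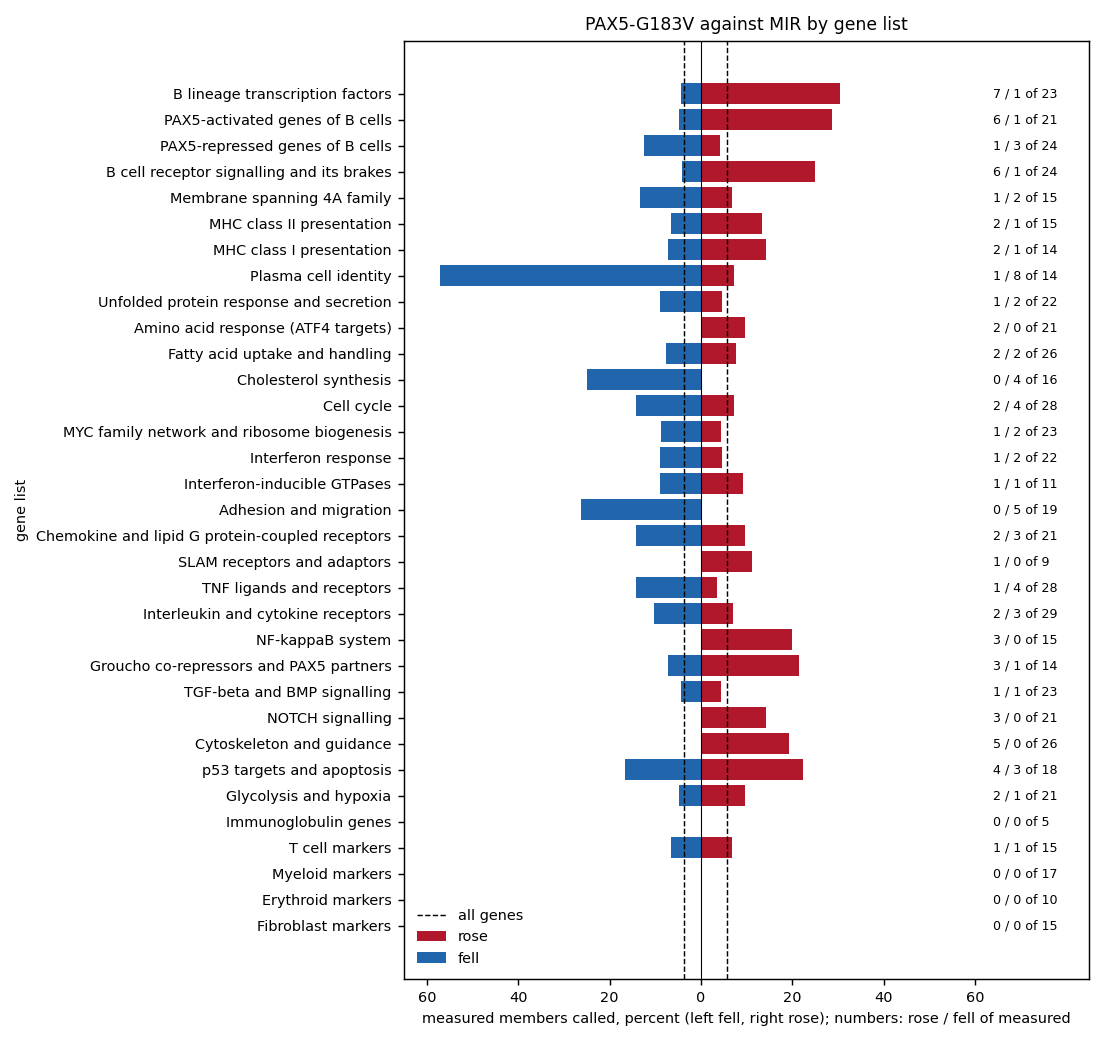
Percent of the measured members of each gene list that rose (right) and fell (left) in PAX5-G183V against MIR. Dashed lines mark all 17097 genes, of which 5.63% rose and 3.64% fell. The plasma cell list has 8 of 14 members on the left. The lists were chosen with earlier results of these data known, so the bars describe them and are no test.

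The isolation batches differed in how many genes passed. Batch 1 alone called 302 genes, 1.77%, with 188 rising (1.1%) and 114 falling (0.667%). Batch 2 alone called 1396, 8.17%, with 841 rising (4.92%) and 555 falling (3.25%). The 2 sets shared 181 genes in the same direction, 1.06% of all genes, 59.9% of the batch 1 calls and 13.0% of those in batch 2. In 177 genes, 1.04%, the difference itself changed between batches. Cd36 and Asb9 were not among them, with differences of 5.99 in batch 1 and 6.10 in batch 2 for Cd36 and -3.47 and -3.22 for Asb9. Nor were Camk2d (1.38 and 1.89), Mgarp (1.48 and 1.36) and Traf5 (1.48 and 1.24). For Cd36 the batch 2 difference includes MIR replicate 7 at 5.89, where the lowest MIR array of that batch read 3.78. Cd36 arrays of PAX5-G183V did not overlap between batches, at 9.55 to 9.91 in batch 1 and 10.51 to 10.77 in batch 2.

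Ms4a1 differed between batches. Its PAX5-G183V arrays read 7.93 to 7.99 in batch 1 and 9.25 to 9.46 in batch 2, and its rise was 4.09 in batch 1 and 5.64 in batch 2, 1.55 more. Nav3 went the other way, with PAX5-G183V arrays at 9.24 to 9.37 in batch 1 and 7.44 to 7.77 in batch 2 and rises of 5.30 and 3.31. Fcgr2b arrays of PAX5-G183V did not overlap between batches either, at 8.00 to 8.14 and 8.82 to 8.99. Spib rose by 2.00 in batch 2, where PAX5-G183V arrays read 6.51 to 6.81, against a difference of 0.50 in batch 1 that did not pass. Id3 behaved likewise, with 0.25 and 1.57.

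Among the 30 leading genes the PAX5-G183V arrays of the 2 batches did not overlap in 17, and the MIR arrays in 7. Over all genes those shares were 17.7% and 16.5%. In 9 of the 15 rises the PAX5-G183V arrays of batch 2 were all above those of batch 1, and in 1, Nav3, all below. Since the batches also hold different transduction numbers, isolation and transduction cannot be told apart as sources of these differences. Of 14 plasma cell genes 2 fell in batch 1 alone and 8 in batch 2 alone, against 0.667% and 3.25% of all genes.

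**Figure D5:**
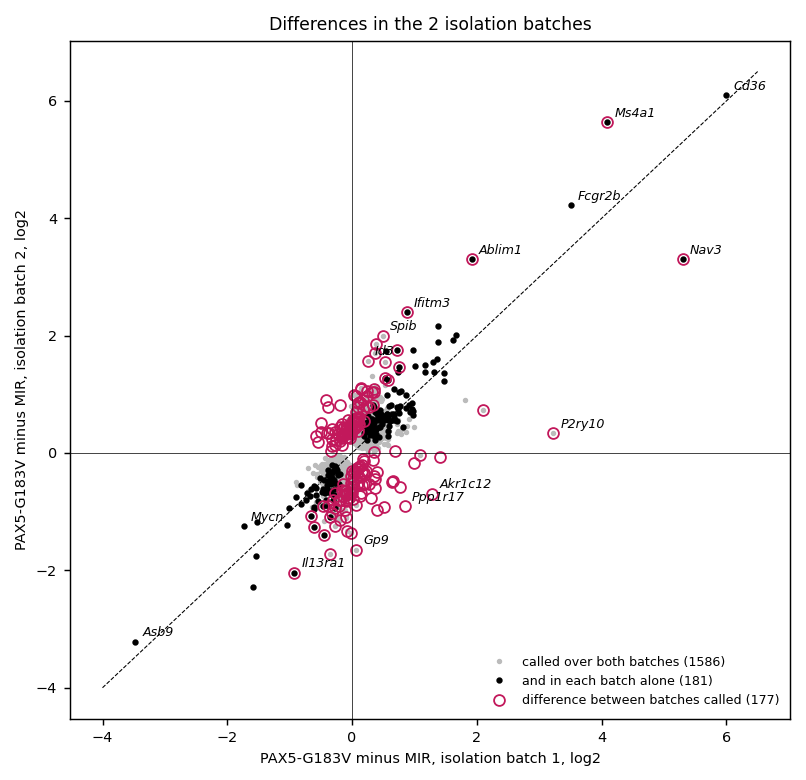
Log2 difference, PAX5-G183V minus MIR, in RNA isolation batch 1 (horizontal axis) and batch 2 (vertical axis), 1 point per gene. Grey points are the 1586 genes called over both batches, black points the 181 called in each batch alone in the same direction, and pink circles the 177 whose difference changed between batches, with Nav3 and P2ry10 below the diagonal and Ms4a1 and Spib above it.

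PAX5-Δ2-6 gave a further comparison. Its transduction numbers lie next to those of PAX5-G183V in isolation batch 1, and between those of PAX5-G183V and MIR in isolation batch 2. PAX5-Δ2-6 against MIR called 0 genes at adjusted p under 0.05 (limma; 1308 at an unadjusted p under 0.05, 4 and 56 genes within isolation batches 1 and 2), while PAX5-G183V against PAX5-Δ2-6 called 852, 4.98%, of which 572 were higher (3.35%) and 280 lower (1.64%). The 2 comparisons of PAX5-G183V share its arrays, so their values are set side by side and not counted as separate evidence. Relative to PAX5-Δ2-6, Cd36 was higher by 6.54 ± 0.31, Ms4a1 by 5.01 ± 0.31, Fcgr2b by 4.07 ± 0.30 and Nav3 by 4.33 ± 0.41. Asb9 differed by -3.35 ± 0.17 and Mycn by -1.61 ± 0.15. All 30 leading genes passed in this comparison too, although Tmem163 shrank to -0.37 from PAX5-Δ2-6, and none passed between PAX5-Δ2-6 and MIR over both batches. Within isolation batch 2 Spag6 did pass there, at -0.77 (limma adjusted p = 0.0471).

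Of 23 B lineage factors 5 were higher and 1 lower against PAX5-Δ2-6, with Ets1 at 2.03 ± 0.22, Spib at 1.41 ± 0.32 and Id3 at 1.10 ± 0.21. Over all genes 3.35% were higher and 1.64% lower. Of 14 plasma cell genes 5 were lower and 0 higher. Jchain was not among them, at -0.38 ± 0.17 (SE; limma adjusted p = 0.223). Of 19 adhesion genes 5 were lower, with Itga4 at -1.03 ± 0.14 and Cd44 at -0.50 ± 0.08, and 4 of them had also fallen against MIR. Irgm1 was higher by 0.99 ± 0.08 and Bcl2 by 0.64 ± 0.09. Cd74 (0.20 ± 0.14), Btk (0.19) and Tle6 (-0.25) did not pass against PAX5-Δ2-6.

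Some calls against MIR had no counterpart against PAX5-Δ2-6. Dgke, a diacylglycerol kinase, rose by 0.44 against MIR but differed by -0.04 from PAX5-Δ2-6, whose arrays stood 0.48 above MIR. Rtn2, a reticulon of the endoplasmic reticulum, gave 0.45 against MIR, -0.09 against PAX5-Δ2-6 and 0.54 for PAX5-Δ2-6 minus MIR. Phlda1, a pleckstrin homology protein, gave -0.68, -0.15 and -0.53. The difference between PAX5-Δ2-6 and MIR passed in none of these 3 over both batches. It passed in all 3 within isolation batch 2, at 0.68 for Dgke, 0.99 for Rtn2 and -0.93 for Phlda1 (limma adjusted p = 0.0268 each). Of the 1586 calls against MIR, 646 genes also passed in the same direction against PAX5-Δ2-6. An adjusted p over 0.5 there, or a difference of the opposite sign, was found in 253 genes.

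PAX5-WT gave few differences from PAX5-G183V. In that comparison 25 genes passed, 0.146%, 9 higher (0.0526%) and 16 lower (0.0936%), and the count was 5 without PAX5-WT replicate 6. The transduction numbers of PAX5-WT lie apart from those of PAX5-G183V, so transduction series and construct cannot be told apart here either. Ets1 read 5.08 to 5.79 in PAX5-G183V arrays and 6.00 to 6.76 in PAX5-WT arrays, a difference of -0.93 (limma adjusted p = 0.037). Fhod3 was higher in PAX5-G183V by 0.75, with 5.67 to 6.41 against 4.83 to 6.10 in PAX5-WT. Mgarp, at 8.42 to 8.66 in PAX5-G183V arrays and 8.73 to 9.26 in PAX5-WT arrays, differed by -0.43. Lower in PAX5-G183V were also Lpxn, an adaptor of focal adhesions, at -0.58, the interferon-induced gene Epsti1 at -0.74 and Fam111a, a protease that restricts viruses, at -0.54. Aph1c, a subunit of gamma-secretase, was higher by 0.47. Cd36 (9.55 to 10.77 in PAX5-G183V, 9.86 to 10.65 in PAX5-WT) and Asb9 (5.16 to 5.60 and 4.75 to 6.13) overlapped.

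The scaling of the arrays moved the balance of rises and falls. Of the genes called against MIR 60.7% rose with the deposited values, 50.3% after quantile normalisation was applied again (779 rose and 769 fell) and 40.8% after each array was centred on its median (664 rose and 963 fell). The median difference over all genes was 0.01, 0.0012 and -0.02 under these scalings, so the split between rises and falls is relative to the scaling used.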

How the data were processed

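RNA of transduced J558LuM cells was hybridised to Affymetrix mouse 3′ IVT arrays, per the labels' protocols. The authors deposited log2 signals, which the submitters' processing notes credit to RMA. The sources used here do not give its settings. Of 45141 probe sets 28898 named 1 gene, 551 several and 15692 none. Each of 17097 genes was read by its brightest probe set, judged by the mean of the 40 arrays, and 16936 matched a RefSeq gene identifier. No 2 arrays held identical values. A limma 3.58.1 model (R 4.3.3) over all 40 arrays of the 6 groups had group, isolation batch and plate as terms, with Benjamini-Hochberg adjustment over all genes and calls at adjusted p under 0.05. Each group is given as its lowest, median and highest array, differences with their SE. Called genes are named as the 15 leading genes each way described in the report, up to 5 per gene list by size, up to 5 each way for the batch difference and for PAX5-WT, the same for calls without a counterpart against PAX5-Δ2-6, and Pax5, Cd79a and Mki67. The gene lists and members were chosen with earlier results of these data known. Separate transductions of 1 line were the replicates. Alternatives were each array left out, other scalings, a filter on dim genes, the 2 groups alone, each plate, transduction series as terms and a replicate block. The model was tested on simulated data. Probe sets that name no gene were fitted apart and not used for lists.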

Additional observations from a re-analysis of the deposited data

Results flagged for a closer look

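Single arrays lay far from the rest of their group in 9 of 272 sets of 7 arrays, 3.31%, where chance gives about 1 in 20. MIR replicate 7 was apart in Cd36 at 5.89, P2ry10 at 3.51 and Stat5a at 5.87, other MIR arrays in Nudt13 at 7.37 (replicate 1), Pparg at 3.81 (replicate 2) and Spi1 at 6.21 (replicate 6). PAX5-G183V replicate 7 was apart in Lair1 at 5.89, replicate 5 in Dll4 at 4.74 and replicate 2 in Lpxn at 5.68. MIR replicate 7 was also the highest MIR array in 7 of the 15 leading rises and in 9 of the 30 genes that rose at least 2-fold.

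The difference between PAX5-G183V and MIR changed from isolation batch to isolation batch in the genes that follow, each given as batch 2 minus batch 1 on the log2 scale from limma. It was larger in batch 2 for Ms4a1 by 1.55, Ifitm3 by 1.53, Spib by 1.501, Pwwp3b by 1.47, Ablim1 by 1.38, Id3 by 1.32, Vav2 by 0.95, Cdkn1a by 0.62 and Cpt1a by 0.55. The value was -1.11 for Il13ra1, -0.98 for Jchain, -0.95 for Snai2, -0.95 for Tmem176a, -0.81 for Ly6d, -0.68 for Tmem176b, -0.66 for Nudt13, -0.61 for Tnfrsf17, -0.50 for P2ry14, -0.50 for Trp53inp1, -0.42 for Fut8 and -0.40 for Cd44. The most negative values were -2.88 for P2ry10, -1.996 for Nav3, -1.98 for Akr1c12, -1.75 for Ppp1r17 and -1.71 for Gp9.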

How the results depend on the processing

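The count of 1586 genes against MIR was 1188 to 1627 when each array was left out (lowest without MIR replicate 6), 153 at a minimum of 1.5-fold, 693 on plate 1 alone, 211 on plate 2 alone, 2420 when isolation batches were replaced by 3 transduction series and 123 when replaced by 4. Replicate numbers were not used to pair the arrays in the main fit. Deviations of same-numbered PAX5-G183V and MIR arrays from their group means correlated at -0.03 to 0.20, over 0.1 in 5 of 7 pairs. Of 7 arrays 4 correlated best with their own number. These deviations still hold batch differences, so they cannot decide whether the numbers mark pairs. With the replicate block, fitted on these 2 groups, 290 genes passed, and 84 of the 136 named values lost their call. Against PAX5-Δ2-6 the 852 became 445 in a fit of the 2 groups alone, 141 at 1.5-fold and 646 to 843 with single arrays left out, and the rising share of 67.1% became 54.9% after quantile normalisation and 42.4% after median centring. PAX5-Δ2-6 against MIR gave 0 to 1 without single arrays and 1 in the 2 groups alone. Against PAX5-WT the 25 became 4 without batch terms, 51 with dim genes (mean under log2 5) removed, 43 with a trended robust fit, 3 at 1.5-fold and 5 to 33 without single arrays. Isolation batch 1 alone gave 185 in the 2 groups alone, 504 without dim genes, 100 at 1.5-fold and 158 (without PAX5-G183V replicate 3) to 243 without single arrays. Isolation batch 2 alone gave 314 at 1.5-fold and 677 (without MIR replicate 6) to 1215. The batch difference gave 453 without dim genes, 95 at 1.5-fold and 80 (without MIR replicate 5) to 184. Signs reversed with 3 series for Akr1c12 (-0.57) and Ppp1r17 (-0.86), and with 4 series for Rfxank (0.16), H2-M3 (0.0655), Insig1 (0.0911), Ccnb2 (0.0539), Dtx1 (-0.0018), Sh2b2 (-0.0682) and Pdk3 (0.36). The cause was not tested. With 4 series PAX5-G183V and MIR share no series and are linked only by 1 PAX5-G183S array, transduction 45. The median SE there was 0.18, against 0.08 in the main fit. With 4 series 43 of 136 named genes kept their side of the threshold, and 96 of the 129 called against MIR stayed called without each of the 14 arrays. Signals near log2 4, such as those of Cd36 in MIR arrays, lie near the floor of the arrays.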

Other observations

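Probe sets that name no gene were fitted apart from the genes. Of 15588, 436 passed (limma, adjusted p under 0.05), 2.8%, with 223 higher and 213 lower in PAX5-G183V than in MIR.

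Of the 1586 called genes 776 had several probe sets. Another probe set passed in the same direction in 235 of them and in the opposite direction in 5. Ppp1r17, a phosphatase regulator, passed in both batches for PAX5-Δ2-6 against MIR (limma), with opposite signs, at 0.88 in batch 1 and -1.04 in batch 2.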
